A study of Mus musculus with 4 samples.

Results

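This account follows 9 genes of growth factor signalling in mouse neuroblastoma cells exposed to manganese. They are the neurotrophin receptors Ngfr, Ntrk2 and Ntrk3, the receptors of the GDNF family Ret, Gfra1 and Gfra2, the receptor tyrosine kinase Alk, the neurotrophin Bdnf and the neurotrophin-inducible secreted protein Vgf. They were taken by symbol from the deposited table of 22287 mRNA genes, and all 9 are listed there. The groups used here were untreated N2a cells and N2a cells kept in MEM medium with 300 µM manganese for 48 h, each with 1 total RNA library depleted of ribosomal RNA. N2a is an established mouse neuroblastoma line, and the labels give its strain as C57BL/6. The treatment text is the same for every library, so the titles set which was treated, and nothing is stated on vehicle or culture time of the untreated cells. With 1 library per condition each ratio compares these libraries, no spread between cultures can be had, and no test was made. Brackets give 95% intervals that cover counting error only.

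Neurotrophins are secreted proteins that keep neurons alive and guide their growth. They act through tyrosine kinases of the Trk family, among them TrkB and TrkC (genes Ntrk2 and Ntrk3), and through the p75 receptor (Ngfr), which has no kinase and also binds unprocessed proneurotrophins. Ligands of the GDNF family bind a membrane-anchored GFRα protein, which then engages the kinase RET. ALK is a receptor kinase of the embryonic nervous system, and RET, ALK and the Trk receptors are known for their part in sympathetic development and in neuroblastoma.

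The untreated library held 13972452 reads assigned to mRNA genes and the Mn-treated library 14606979. Of 15 markers of sympathoadrenal cells and neurons, 14 had at least 20 reads over both libraries. Their summed level was 4477 RPM (reads per 1000000 reads of the mRNA table) untreated and 4452 with manganese, of which Tubb3 and Uchl1 made up 82.7% and 82.1%. Single markers differed both ways, with log2 ratios of -0.88 [-1.19 to -0.58] for Isl1, 0.91 [0.53 to 1.30] for Th and 0.71 [0.43 to 1.00] for Map2, and their part in the results below was not tested. In FPKM, a level per transcript length, Isl1 went from 8.16 untreated to 2.30 with manganese, a larger drop than by counts. Markers of other cell types were low: the summed levels untreated and with manganese were 10.02 and 20.88 for glia of the neural crest, 4.72 and 3.90 for astrocytes, 3.58 and 3.97 for fibroblasts, 0.716 and 1.92 for epithelial cells and 0.215 and 0.548 for immune cells. Most of the glial reads came from Erbb3 (126 and 290 reads), while Sox10, S100b and Foxd3 had 0 reads in both libraries. In bulk RNA, fewer cells that express a gene and less RNA per cell cannot be told apart.

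Promoter windows around annotated starts are printed for 3 contrasting members. Which starts these cells use, and whether the windows bear on the ratios, was not tested. RefSeq windows of 250 bases before to 50 after a start (build GRCm38.p6) were found for 5 of the 9 genes, and not all of them are shown. Alk is given because it had the highest ratio of the well counted members, Ngfr as an abundant receptor that was lower with manganese, and Bdnf, in the window of 7 that held a CRE core, as a gene with almost no reads. Capitals mark the CRE core TGACG and the GC box GGGCGG on either strand.
Alk, chr17:72604258-72604557, minus strand: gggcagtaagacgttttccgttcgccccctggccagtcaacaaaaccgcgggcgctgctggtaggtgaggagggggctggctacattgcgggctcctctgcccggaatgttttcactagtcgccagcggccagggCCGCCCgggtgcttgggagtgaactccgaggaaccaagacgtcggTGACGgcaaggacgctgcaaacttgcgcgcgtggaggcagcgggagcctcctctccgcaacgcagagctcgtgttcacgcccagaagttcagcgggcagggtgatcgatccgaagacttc
Ngfr, chr11:95587649-95587948, minus strand: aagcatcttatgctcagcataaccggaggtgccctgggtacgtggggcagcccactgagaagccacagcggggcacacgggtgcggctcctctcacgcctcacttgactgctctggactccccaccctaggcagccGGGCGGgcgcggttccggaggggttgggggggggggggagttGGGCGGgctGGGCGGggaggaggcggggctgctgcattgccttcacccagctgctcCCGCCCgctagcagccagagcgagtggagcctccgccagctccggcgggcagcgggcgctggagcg
Bdnf, chr2:109692186-109692485, plus strand: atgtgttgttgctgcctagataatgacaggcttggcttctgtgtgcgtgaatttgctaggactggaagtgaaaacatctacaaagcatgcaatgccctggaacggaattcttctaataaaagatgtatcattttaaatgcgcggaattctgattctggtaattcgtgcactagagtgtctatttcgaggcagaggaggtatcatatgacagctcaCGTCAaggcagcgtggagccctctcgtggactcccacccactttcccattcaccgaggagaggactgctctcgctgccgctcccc
The Alk window held 1 CRE core and 1 GC box, and 64.0% of its bases were G or C. The Ngfr window held 4 GC boxes and 0 CRE cores at 71.7% G or C. The Bdnf window held 1 CRE core and 0 GC boxes at 48.7% G or C. It was picked out of 7 for that CRE core, so its match cannot be set against the share of all windows. Over all 32851 windows of the same length the CRE core was in 20.8%, the GC box in 35.7%, and the median G or C content was 52.7%. The full CRE, TGACGTCA, which contains the core, was in 1.79% of all windows and in none of these 3, nor was TATAAA, which was in 13.6%. A match is a run of letters only.

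Levels per transcript length were spread over several orders of magnitude. Ret stood at 137.92 FPKM (fragments per kilobase of transcript, scaled to library depth) in the untreated and 148.0 FPKM in the Mn-treated library, at or above 97.0% and 97.4% of the genes with a value over 0 in these libraries. Vgf was at 123.05 and 206.87 FPKM, so its place relative to Ret turned from below to above. Ngfr followed at 43.41 and 34.98 FPKM. Ntrk3 at 4.38 and 6.33 FPKM and Alk at 1.09 and 2.27 FPKM were far lower. Gfra1 at 0.78 and 0.62 FPKM and Gfra2 at 0.29 and 0.23 FPKM lay below them. Ntrk2 and Bdnf were listed at 0 FPKM untreated and at 0.04 and 0.01 FPKM with manganese. The rank order of the remaining 7 was the same in both libraries except for Ret and Vgf, and how far it varies between cultures is unknown.

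**Figure D1:**
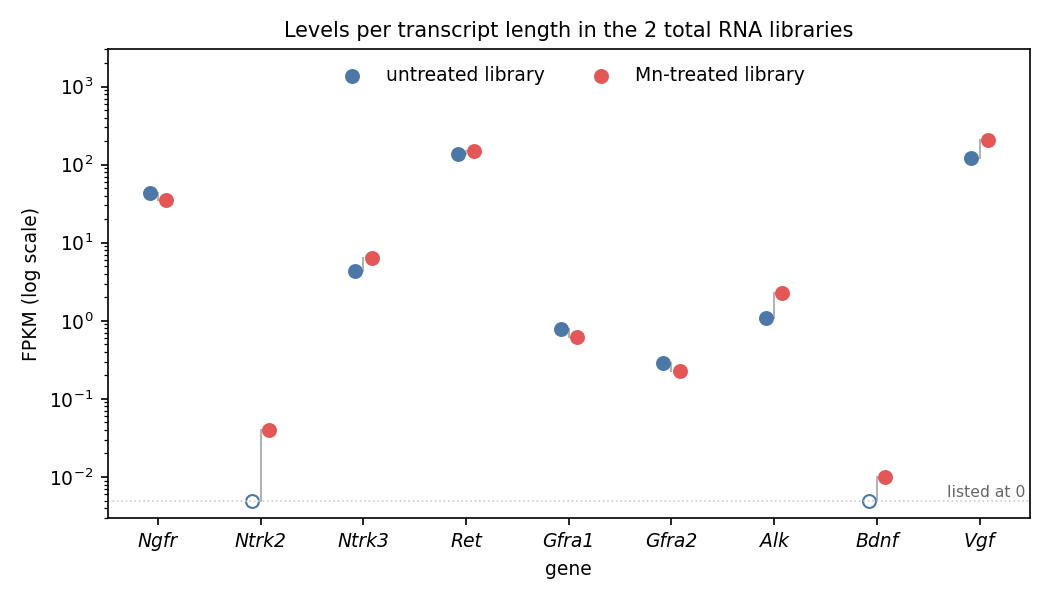
FPKM on a log axis for each of the 9 genes, with 1 point for the untreated and 1 for the Mn-treated total RNA library, and open points on the dotted line for values listed at 0. Ret and Vgf lie above 100 FPKM in both libraries, whereas Gfra1, Gfra2, Ntrk2 and Bdnf lie below 1 FPKM.

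Among the annotated receptor tyrosine kinases Ret was the highest gene. The table's annotation puts 53 genes under transmembrane receptor tyrosine kinase activity, and Ret ranked 1 by FPKM in both libraries. Ddr1, a collagen receptor kinase, ranked 2 at 36.07 and 49.40 FPKM, so the level of Ret was 3.82 times that of Ddr1 untreated and 3.0 times with manganese. Ntrk3 ranked 9 and then 8, and Alk ranked 15 and then 12. Ltk, the nearest relative of Alk, went from rank 12 to rank 17, at 2.05 and 1.38 FPKM. Alk was thus below Ltk per transcript length in the untreated library and above it in the Mn-treated one. This annotated set was looked up after the values of its members were known.

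**Figure D2:**
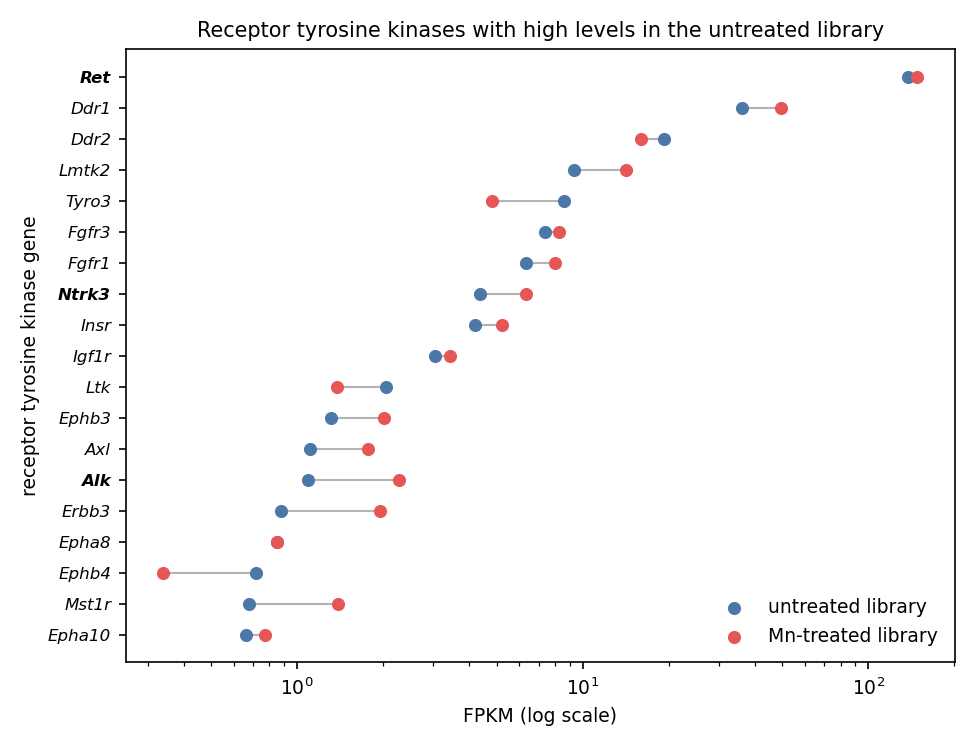
FPKM on a log axis for annotated receptor tyrosine kinases ranked highest in the untreated library (not all are shown), down to Epha10 at 0.66 FPKM. Each has 1 point per library, and the members are in bold. Ret stands apart at the top in both libraries, and the points of Alk and Ltk change their order between libraries.

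The comparison of treated with untreated cells placed 1 of the 7 members with at least 20 reads past 2-fold higher in the Mn-treated library and 0 past 2-fold lower. Over all 11872 genes with at least 20 reads, 7.26% were past 2-fold higher and 1.69% past 2-fold lower (4.60% and 2.75% under median-ratio scaling, which sets the median count ratio of genes read in both libraries to 1). By 1.5-fold 3 members were higher and 0 lower, against 21.6% and 5.97% of all genes. With so few members these shares do not set them apart from the table. The median log2 ratio of the 7 was 0.15 and that of all measured genes was 0.18. A log2 ratio is therefore to be read against 0.18, and median-ratio scaling lowers every log2 ratio by that amount.

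**Figure D3:**
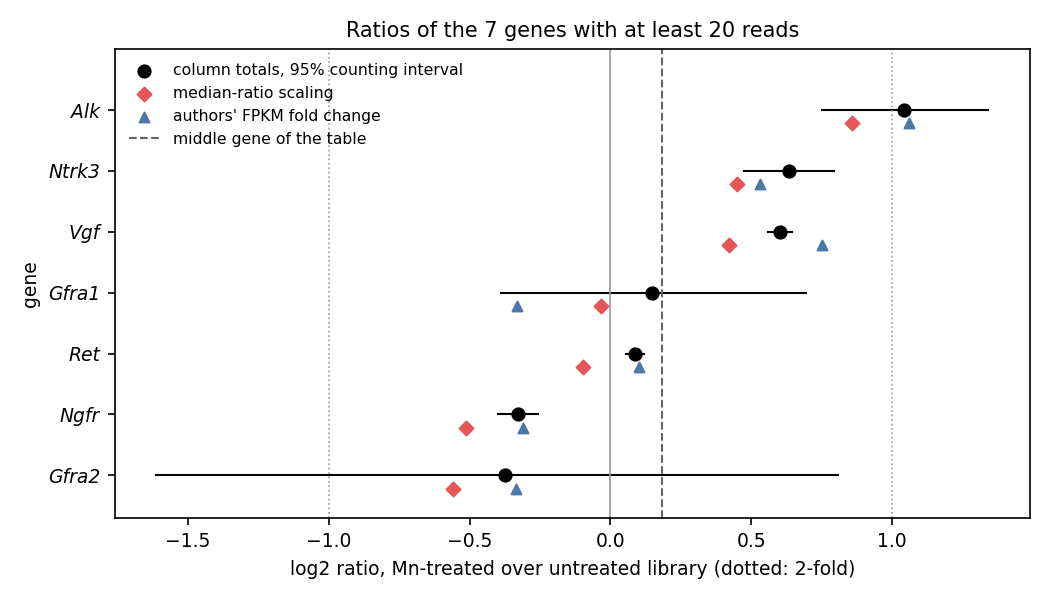
Log2 ratio of the Mn-treated over the untreated library for the 7 members with at least 20 reads, with 95% counting intervals as bars, the value under median-ratio scaling as diamonds and the authors' FPKM fold change as triangles. Alk, Ntrk3 and Vgf lie to the right of the middle gene at 0.18 by all 3 measures, and Ngfr and Gfra2 to the left of 0.

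Ngfr, the p75 receptor, had 3572 reads untreated and 2975 with manganese, or 255.6 [247.3 to 264.2] and 203.7 [196.4 to 211.1] RPM. It was lower in the Mn-treated library, with a log2 ratio of -0.33 [-0.40 to -0.26], and the difference exceeds counting error. The authors' deposited table has -0.31. It was the lowest of the members with over 100 reads.

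Ntrk3, which encodes TrkC, the receptor of neurotrophin 3, had 520 and 844 reads, or 37.2 [34.1 to 40.6] and 57.8 [53.9 to 61.8] RPM. Its log2 ratio was 0.63 [0.48 to 0.80], a ratio of 1.55, and 0.53 in the authors' deposited table. Its estimated counts of 520.32 and 844.07 were not whole, so some reads may be shared with other gene models. Ntrk3 RNA was thus higher in the Mn-treated library, and Ngfr RNA was lower. Per transcript length, the level of Ngfr was 9.91 times that of Ntrk3 in the untreated library and 5.53 times in the Mn-treated library. A ratio within each library does not depend on the scaling.

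Ntrk2, which encodes TrkB, the receptor of brain-derived neurotrophic factor, had 0 reads untreated and 2 with manganese. Bdnf itself had 0 and 1 read. A count of 0 in the untreated library allows up to 0.215 RPM (3 counts), and 3 counts in the Mn-treated library are 0.205. Both genes were at or under that floor in both libraries, so no fold is given and no difference was detectable at this depth. The transcripts of the ligand and of its kinase receptor were thus near the limit of detection together, beside Ngfr at over 200 RPM.

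Ret had 15228 and 16911 reads, or 1090 [1073 to 1107] and 1158 [1140 to 1175] RPM. Its log2 ratio of 0.09 [0.06 to 0.12] was positive with column totals and negative, at -0.10, with median-ratio scaling. The most abundant kinase gene of the set was thus within 1.1-fold either way. Gfra1, the co-receptor that binds GDNF, had 56 and 65 reads, or 4.01 [3.03 to 5.20] and 4.45 [3.43 to 5.67] RPM. Its log2 ratio of 0.15 [-0.39 to 0.69] spans 0 and turned to -0.03 with median-ratio scaling, and the authors' deposited table has -0.33. Gfra2, the co-receptor that binds neurturin, had 15 and 12 reads, at 1.07 [0.601 to 1.77] and 0.822 [0.424 to 1.44] RPM. Its log2 ratio of -0.37 [-1.61 to 0.81] spans 0 too. Neither co-receptor showed a difference that could be detected at this depth. Per transcript length Ret stood 129 times above Gfra1 and Gfra2 together in the untreated library and 174 times above them in the Mn-treated library. Part of that rise came from the FPKM of Gfra1, which was lower with manganese although its reads were higher. By counts the log2 ratios of Ret and Gfra1, 0.09 and 0.15, were close, and both co-receptors had few reads.

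Gfra1 was the member for which counts and FPKM went opposite ways. Dividing its count by its FPKM and the library total gives a value proportional to transcript length, 5.14 untreated and 7.18 with manganese. The depth behind the FPKM values is not given, so these values are not lengths in kb. Their ratio was 1.40. Over 9563 genes with at least 1 FPKM in both libraries that ratio had a median of 0.989, with 90% of genes between 0.835 and 1.28. Gfra1 itself was below 1 FPKM in both libraries and so outside that set of genes. For Vgf the values were 4.21 and 3.81, a ratio of 0.904, and for Ntrk3 8.50 and 9.13, a ratio of 1.07. The ratios of Ngfr, Ret, Alk and Gfra2 lay between 0.965 and 0.994. Whether isoforms differ between the libraries was not tested.

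Alk had 142 and 306 reads, or 10.2 [8.56 to 12.0] and 20.9 [18.7 to 23.4] RPM, and these intervals are far apart. Its ratio was 2.06 [1.68 to 2.53], a log2 ratio of 1.04 [0.75 to 1.34]. The interval spans 2-fold, and the log2 ratio was 0.86 with median-ratio scaling, so the count of 1 member past 2-fold becomes 0 there. The authors' deposited table has 1.06. The estimates of 141.51 and 306.17 were not whole, so reads may be shared with other gene models, and without Alk and Ntrk3 the count is 0 as well. The kinase genes Ret and Alk were 127 times apart per transcript length in the untreated library and 65.2 times apart in the Mn-treated library.

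Vgf, a granin-like precursor of secreted neuropeptides that neurotrophins are known to induce, had 7242 and 11503 reads, or 518.3 [506.4 to 530.4] and 787.5 [773.2 to 802.0] RPM. Its log2 ratio was 0.60 [0.56 to 0.65], a ratio of 1.52, and it stayed positive at 0.42 with median-ratio scaling. The authors' deposited table has 0.75. Of the 3 members above 30 FPKM in both libraries (Ret, Vgf and Ngfr) it had the highest ratio.

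Ligands were sparse. Ntf3, Nrtn, Pspn, Alkal1 and Alkal2 had 0 reads in both libraries, which covers the ligand of TrkC, neurturin, persephin and both dedicated ligands of ALK. Gdnf had 0 and 3 reads, at the floor, and the midkine gene Mdk had 1 read in each library. Ntf5, which encodes neurotrophin 4, another ligand of TrkB, had 18 and 32 reads, at 0.75 [-0.11 to 1.69] on the log2 scale. Artn, artemin, had 24 and 35 reads, at 0.47 [-0.31 to 1.29], while the authors' deposited table has 1.25. Ptn, pleiotrophin, had 92 and 93 reads, at -0.05 [-0.48 to 0.38]. The most abundant ligand by reads was Gdf15, a stress-induced member of the wider family, with 1379 and 997 reads, at -0.53 [-0.65 to -0.41]. Gfral, its receptor, had 0 and 10 reads, under the minimum of 20, and is named here because of its values.

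The other genes of these pathways were followed in 10 lists of 97 genes, of which 70 had at least 20 reads. Of the 70, 9 were past 2-fold higher and 0 past 2-fold lower, or 12.9% and 0%, against 7.26% and 1.69% of all genes. With median-ratio scaling 4 were higher, or 5.71% against 4.60% of all genes, which is near the background. By the authors' deposited fold changes 10 were, or 14.3% against 8.63%. The median log2 ratio of the 70 was 0.36, against 0.18 for all measured genes. The wider neurotrophin signalling pathway of the table's annotation, which includes some members, had 7 of 106 measured genes past 2-fold higher, or 6.60%, and 0 past 2-fold lower, with a median of 0.22. With median-ratio scaling 3 were higher, or 2.83%, with a median of 0.04.

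**Figure D4:**
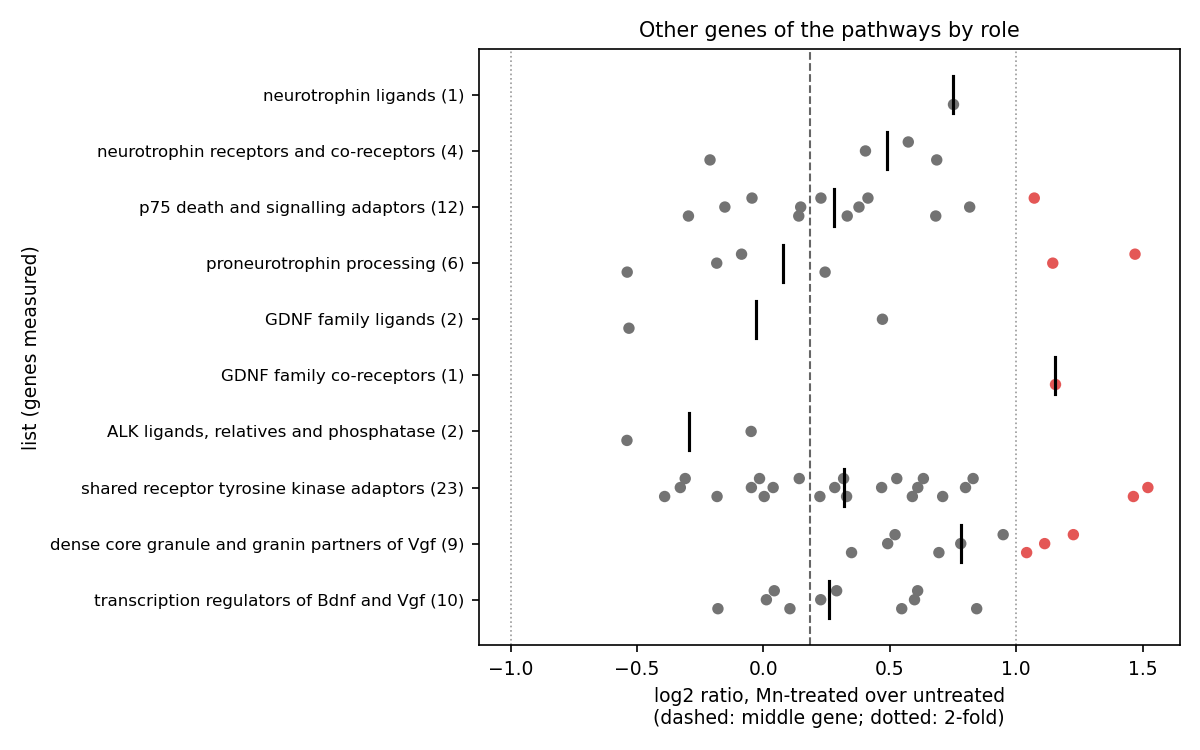
Log2 ratio of the Mn-treated over the untreated library for the 70 measured genes of the 10 lists, with 1 point per gene, red points past 2-fold and a black bar at each list's median. The 9 measured dense core granule genes all lie to the right of the dashed line of the middle gene at 0.18.

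The measured transcripts of proteins packed with VGF into dense core granules, or that process it there, were all on the higher side. All 9 measured genes of that list had a log2 ratio above 0.18, the value of the middle gene, which 5936 of the 11872 measured genes exceed. All 9 also stayed above 0 with median-ratio scaling. Their median was 0.78, with 3 past 2-fold higher, or 33.3% against 7.26% of all genes (1 with median-ratio scaling, or 11.1% against 4.60%). The granin Scg2 had 335 and 820 reads, at 1.23 [1.04 to 1.41]. Pcsk2, a convertase that cuts neuropeptide precursors, had 247 and 559 reads, at 1.11 [0.90 to 1.34], and Cpe, which trims the cut ends, had 478 and 1029 reads, at 1.04 [0.88 to 1.20]. The lowest were Pcsk1n at 0.35 [0.26 to 0.44] and Chgb at 0.49 [0.31 to 0.67]. Pcsk1, the other convertase known to process VGF, had 0 reads in both libraries. Vgf at 0.60 lay within the range of these genes.

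Partners of the receptors differed among themselves. Ncam1, an adhesion molecule that can serve GDNF as an alternative receptor with GFRα1, had 1810 and 4208 reads, at 1.15 [1.07 to 1.23], or 0.97 with median-ratio scaling. Kidins220, a scaffold that binds Trk receptors and p75, had 535 and 1176 reads, at 1.07 [0.92 to 1.22], or 0.91 in the authors' deposited table. Sort1, the sortilin co-receptor of p75 for proneurotrophins, had 701 and 633 reads, at -0.21 [-0.37 to -0.05]. Its relative Sorcs2 had 67 and 113 reads, at 0.69 [0.24 to 1.15], and Lingo1, a p75 partner in Nogo signalling, had 613 and 848, at 0.40 [0.25 to 0.56]. Among the 12 p75 adaptors, Traf6, a ubiquitin ligase, was at 0.82 by counts with 128 and 236 reads but at 0.06 in the authors' deposited table. Ripk2 was at -0.15 [-0.76 to 0.45], and Arhgdia, an inhibitor of small GTPases that p75 engages, was at -0.30 [-0.33 to -0.27] on 20687 and 17609 reads. Ltk had 117 and 84 reads, at -0.54 [-0.96 to -0.13], opposite to Alk at 1.04.

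Of 23 measured adaptors that receptor tyrosine kinases share, 2 were past 2-fold higher and 0 past 2-fold lower, with a median of 0.32. The share of 8.70% is near the 7.26% of all genes. Shc3, the neuronal member of the Shc adaptors, had 68 and 197 reads, at 1.46 [1.07 to 1.89]. Shc2, also neuronal, had 5 and 16 reads, at 1.52 [0.10 to 3.42]. Shc2 met the reads minimum only through its reads in the Mn-treated library, so its place in the count of 2 is weak. The lowest were Sh2b3 at -0.39 [-0.58 to -0.20] and Sh2b1 at -0.33 [-0.45 to -0.21], adaptors with SH2 domains. Of 6 measured genes of proneurotrophin processing, 2 were past 2-fold higher, or 33.3% against 7.26% of all genes. With median-ratio scaling 1 was, or 16.7% against 4.60% of all genes. Under that scaling Plat was at 0.96, and the list's median went from 0.08 to -0.10. Plat, tissue plasminogen activator, had 136 and 315 reads, at 1.14 [0.85 to 1.45], and Serpini1, its neuronal inhibitor neuroserpin, had 38 and 111, at 1.47 [0.94 to 2.05]. Pcsk7 was at -0.18 [-0.44 to 0.07] by counts and at 0.34 in the authors' deposited table. All 10 measured transcription regulators of Bdnf and Vgf lay within 2-fold, with a median of 0.26. Most genes did so too, 10809 of the 11872 measured, so this does not set the regulators apart. Rcor1, a corepressor that works with REST, was at 0.84 [0.57 to 1.13] and Crem at 0.61 [-0.17 to 1.44]. The CREB coactivators Crtc1 and Crtc2 were at 0.01 [-0.15 to 0.17] and -0.18 [-0.35 to -0.01], and Crtc1 turned to -0.17 with median-ratio scaling.

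Circular RNAs gave another readout of the same libraries. The deposited circRNA table held junction reads for 5 circRNAs hosted by 3 of the 9 genes. Ntrk3 hosted 3 of them, with 33 junction reads untreated and 18 with manganese. The most abundant, at chr7:78450887-78462942 on the minus strand, had 26 and 11 junction reads. The others had 4 and 7, and 3 and 0, so not all went down and the sum rests mainly on the most abundant. The submitters' processing notes name mm9, but all 5 lay inside the GRCm38 span of their host gene, so their build is uncertain. The summed ratio for Ntrk3 was 0.675 [0.358 to 1.23] with the junction read totals of 11665 and 9433 as the scale, and 0.522 [0.277 to 0.954] with the mRNA totals. The gene's own ratio was 1.55 [1.39 to 1.74]. Per 1000 reads of the gene, Ntrk3 thus had 63.5 junction reads untreated and 21.3 with manganese, and the difference of the ratios was not tested. Junction reads of all circRNAs together were also fewer with manganese, at 11665 and 9433, while reads of the mRNA genes were more. The circRNA of Alk had 4 and 0 junction reads and that of Gfra1 had 0 and 3, too few for a comparison.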

How the data were processed

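RNA was extracted with Trizol and sequenced on an Illumina instrument, per the labels' protocols. The submitters' processing notes name fastp 0.18.0, Bowtie2, StringTie and the build mm9, with no role or order. For the counting program, annotation release and circRNA caller the answer is: not given in the sources used here. Per the file headers, the mRNA table of the authors holds estimated counts per gene (not whole for 13.3% of genes) and FPKM values. The authors' deposited log2 fold change is the ratio of FPKM values with 0 replaced by 0.001. The circRNA table deposited by the authors holds whole junction read counts.

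The estimates were rounded first. The log2 ratio is that of rounded counts plus 0.5 over the column totals, with an exact conditional binomial (Clopper-Pearson) interval, and levels have exact Poisson intervals. Because the reads carry no molecular identifiers, PCR copies are not independent, and these intervals and the floor of 3 counts cover counting error alone. Genes with 20 or more reads summed over the libraries were called measured, and the threshold was 2-fold. Alternatives used median-ratio scaling, edgeR 4.0.16 (TMM factors), pseudocounts of 1 and 5, the authors' fold change, other read minima and 1.5-fold. The ratio step was tested on simulated counts. Python 3.11.15 and scipy 1.17.1 were used.

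Members and lists were chosen with earlier results of these data known. Named genes are all 9 members, every ligand, up to 2 highest and 2 lowest measured genes of each list, and every measured list gene past 2-fold. Single values of some genes that this rule takes are not reported here. Genes outside this rule, such as the receptor kinases ranked by FPKM, came from the table's annotation. The lncRNA and small RNA tables were not used.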

Additional observations from a re-analysis of the deposited data

How the results depend on the processing

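No paired analysis was possible because each condition has 1 library, and for the same reason no library could be left out. Median-ratio and TMM scaling lowered every log2 ratio by 0.18, since genes at the middle of the table lay at 0.18 with column totals. The log2 ratio of Ngfr became -0.51 and -0.50 under these scalings, that of Ntrk3 became 0.45 and 0.46, that of Vgf 0.42 and 0.43, and that of Ret turned negative, at -0.10 and -0.089. With the authors' deposited fold change Vgf was at 0.75. The remaining values of Alk, Gfra1 and Gfra2 stayed within their counting intervals under every alternative run, although Gfra1 changed sign (-0.03 with median-ratio scaling and -0.33 in the authors' deposited table). The number of members past 2-fold higher was 1 as reported. It was 0 with median-ratio scaling and 0 with TMM scaling. Using only members with whole counts, an alternative chosen after seeing the data, it was 0 as well. At 1.5-fold it was 3 (against 21.6% of all genes), and with no reads minimum it was 3 (against 14.7%). The last count lets in Ntrk2 and Bdnf, which had 0 untreated reads. Their ratios rest on the 0.5 added to each count, so no fold is read from them. The number of other pathway genes past 2-fold higher was 9 as reported. It was 4 with median-ratio and 4 with TMM scaling (5.71%, against 4.60% and 4.67% of all genes), 14 with no reads minimum (17.7% against 14.7%) and 25 at 1.5-fold (35.7% against 21.6%). The counts of genes past 2-fold lower were 0 for members and 0 for pathway genes under every alternative run. For the single pathway genes named, 158 alternative values stayed within the counting interval, 28 left it and none of a gene past 2-fold changed sign. Depth limits Gfra2, Gfra1 and most ligands, whose intervals span 0, and Ntrk2 and Bdnf, which lie at or under 3 counts.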
